A study of Mus musculus and Rattus norvegicus with 30 samples.

Results

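Pressure overload was applied to mouse left ventricles by transverse aortic constriction (TAC), and the 10 constricted hearts of the study differed among themselves in the level of Myh7. They were graded here by that level, which was selected on measured values with earlier results of these data known, and every other gene was described by its association with Myh7 across these hearts. The 10 hearts are 5 of the TAC_332 group (constriction plus the agonist 332) and 5 of the TAC_vehicle group (constriction plus vehicle). They stand among 18 mouse hearts and 30 samples in the series, the rest of which are rat cardiomyocyte cultures not used here.

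Myh7 encodes the beta myosin heavy chain, the slow motor protein of the sarcomere. In the adult mouse ventricle the fast alpha chain, encoded by Myh6, predominates, and Myh7 is known to be re-expressed under pressure overload together with natriuretic peptides and other genes of the fetal heart. Fibroblasts of an overloaded ventricle are known to become activated and to deposit collagens and matricellular proteins, while genes of fatty acid oxidation, many of them targets of the estrogen-related receptors (ERRs) that 332 is meant to activate, are known to decline in failing hearts.

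All groups were wild-type mice, and RNA came from the left ventricle. TAC_332 mice had aortic constriction and intraperitoneal 332 for 6 weeks after surgery, TAC_vehicle mice had constriction and vehicle, sham_332 mice (5 hearts) had sham surgery and 332, and sham_vehicle mice (3 hearts) had sham surgery and vehicle. Strain, age, sex, dose and heart function are not in the labels used here, so Myh7 is a molecular grade and no measure of function. The labels number the samples of a group without saying that each is a separate animal, so the p-values measure the spread between these samples. Assigned counts ranged between 11375894 and 16599899 per TAC heart. Replicates 4 and 5 of each TAC group were read in lane L001 and replicates 1 to 3 in lane L004, as the lane tags of the deposited tables have it, and each slope below was adjusted for group and lane.

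Counts were scaled for library size and composition and are given as CPM. Myh7 was at 962, 1490, 1530, 5600 and 1070 CPM in the TAC_332 hearts, in the order of their replicate numbers, and at 708, 3180, 1750, 3090 and 6320 CPM in the TAC_vehicle hearts. The treatment groups overlapped along most of the range, with 1 high heart in TAC_332 and the lowest and the highest heart of all in TAC_vehicle. The highest heart had 8.93 times the level of the lowest. The highest was read in lane L001 and the lowest in lane L004, so this range includes any difference between lanes. After adjustment for group and lane, the residuals ran between -1.37 and 1.02 on the log2 scale with an SD of 0.83. The lowest residual was that of TAC_332 replicate 5 in lane L001. Before adjustment TAC_332 replicate 1 in lane L004 had less Myh7, and its residual was -0.32. Scaled together with the sham hearts, Myh7 lay between 678 and 6010 CPM in the TAC hearts, between 99.9 and 291 CPM in the sham_332 hearts and between 157 and 260 CPM in the sham_vehicle hearts. No TAC heart overlapped a sham heart.

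**Figure D1:**
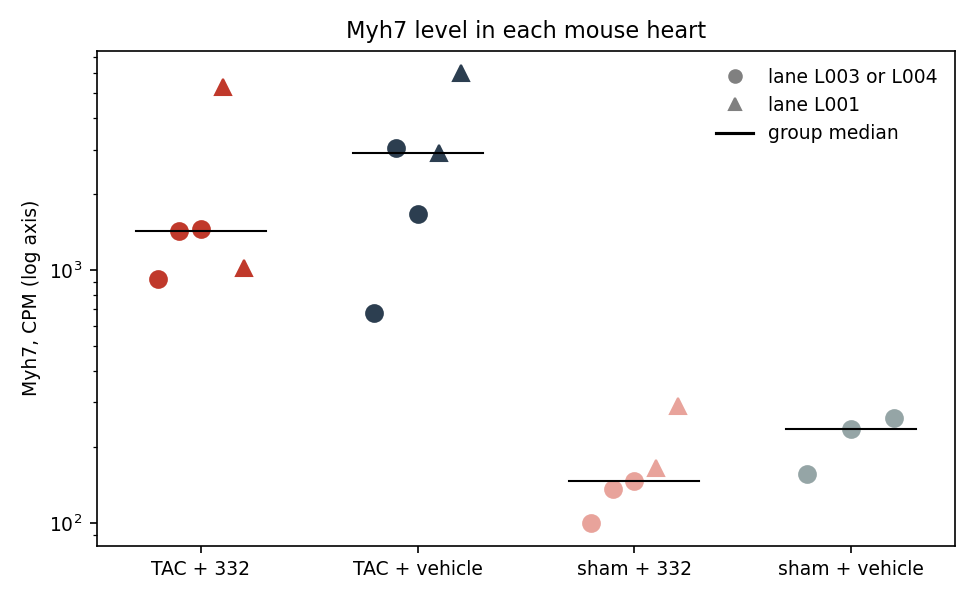
Myh7 level in CPM (log axis) for each of the 18 mouse hearts, scaled together. Circles are hearts of lanes L003 or L004, triangles hearts of lane L001, and bars mark group medians. The TAC hearts of both treatments spread between 678 and 6010 CPM, above all sham hearts, which reach 291 CPM.

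The promoter windows of Myh7 and of a called gene of each direction, Nppa (rising) and Scn4b (falling), both picked with their slopes known, are printed to show the DNA beside the start of each. Windows run 250 bases before to 50 bases after the RefSeq start in GRCm38.p6, on the gene's strand, and capitals mark the M-CAT letters CATTCC or their reverse complement, the element bound by TEAD factors in cardiac genes. Searched on both strands, CATTCC stood in 14.7% of all 32851 RefSeq promoter windows. The GATA letters AGATAA (11.2% of all windows), the MEF2 letters TATTTTTA (2.72%) and the ERR half-site TCAAGGTCA (0.423%) were searched in the same way, and none of them stood in those 3 windows.
Myh7, chr14:54994577-54994876, minus strand: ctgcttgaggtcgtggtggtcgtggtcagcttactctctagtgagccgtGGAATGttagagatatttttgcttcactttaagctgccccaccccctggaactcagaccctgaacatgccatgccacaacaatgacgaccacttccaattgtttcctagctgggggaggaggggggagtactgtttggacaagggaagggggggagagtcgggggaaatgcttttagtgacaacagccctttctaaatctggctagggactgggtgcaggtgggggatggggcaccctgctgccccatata
Nppa, chr4:148000472-148000771, plus strand: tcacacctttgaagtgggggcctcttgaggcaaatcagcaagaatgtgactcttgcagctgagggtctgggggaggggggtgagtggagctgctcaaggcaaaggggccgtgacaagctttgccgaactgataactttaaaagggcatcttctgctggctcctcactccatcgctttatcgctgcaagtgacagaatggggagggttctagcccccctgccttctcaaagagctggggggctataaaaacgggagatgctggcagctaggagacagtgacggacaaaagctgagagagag
Scn4b, chr9:45138374-45138673, plus strand: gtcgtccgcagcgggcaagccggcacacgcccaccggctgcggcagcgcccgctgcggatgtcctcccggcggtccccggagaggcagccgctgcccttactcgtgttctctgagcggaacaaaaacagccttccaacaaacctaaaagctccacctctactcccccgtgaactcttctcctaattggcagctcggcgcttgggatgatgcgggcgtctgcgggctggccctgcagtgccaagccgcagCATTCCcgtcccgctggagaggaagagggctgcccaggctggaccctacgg
The Myh7 and Scn4b windows each held 1 CATTCC match and the Nppa window none. A second Myh7 start of the RefSeq table, whose window begins at base 54994500, held none either. Of the 106 genes called below, 76 had a window in the table. CATTCC stood in 22.0% of the 59 windows of genes with a positive slope and in 20.0% of the 40 windows of genes with a negative slope. It stood in 12.4% of the windows of all genes tested. The GATA letters stood in 6.78%, 7.5% and 6.48% of these windows, in the same order. The MEF2 letters stood in 0%, 0% and 1.41%, and the ERR half-site in 0%, 0% and 0.275%. This is a description of letters with no test.

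Across the 10 hearts, 71 of 13328 genes rose with Myh7 (0.533%) and 35 fell (0.263%), together 106 (0.795%), at a Benjamini-Hochberg adjusted p under 0.05 in the quasi-likelihood F-test of edgeR. The same fit in DESeq2 called 185 and 115. A slope is the log2 change of a gene for each doubling of Myh7, and a positive slope means that the gene was higher in hearts with more Myh7. Slopes of the 71 rising genes ran between 0.20 and 1.84 with a median of 0.44, and those of the 35 falling genes between -0.88 and -0.23 with a median of -0.37. Over all genes tested the median slope was 0.00. At an unadjusted p under 0.05, 6.81% of genes had a positive and 6.22% a negative slope, against which the lists below are read. All 71 rising and all 35 falling genes had the same sign in each fit that left out 1 heart, within each lane alone and within each treatment group alone. The genes were selected on these same hearts, so a kept sign was largely fixed by the selection and is no independent support. The calls varied between these fits. Without TAC_332 replicate 5 they were 4 rising and 1 falling. Without TAC_332 replicate 4 they were 13 rising and 0 falling in edgeR, with 420 falling genes at an unadjusted p under 0.05. Without TAC_vehicle replicate 5, 28 rose and 9 fell, and without TAC_vehicle replicate 1, 45 rose and 9 fell. Without TAC_332 replicate 2 the counts were larger, at 198 rising and 137 falling. Of the 31 called genes named by rule, 28 lost their call without TAC_332 replicate 5, 25 without TAC_332 replicate 4, 15 without TAC_vehicle replicate 1 and 12 without TAC_vehicle replicate 5, and 0 changed sign.

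**Figure D2:**
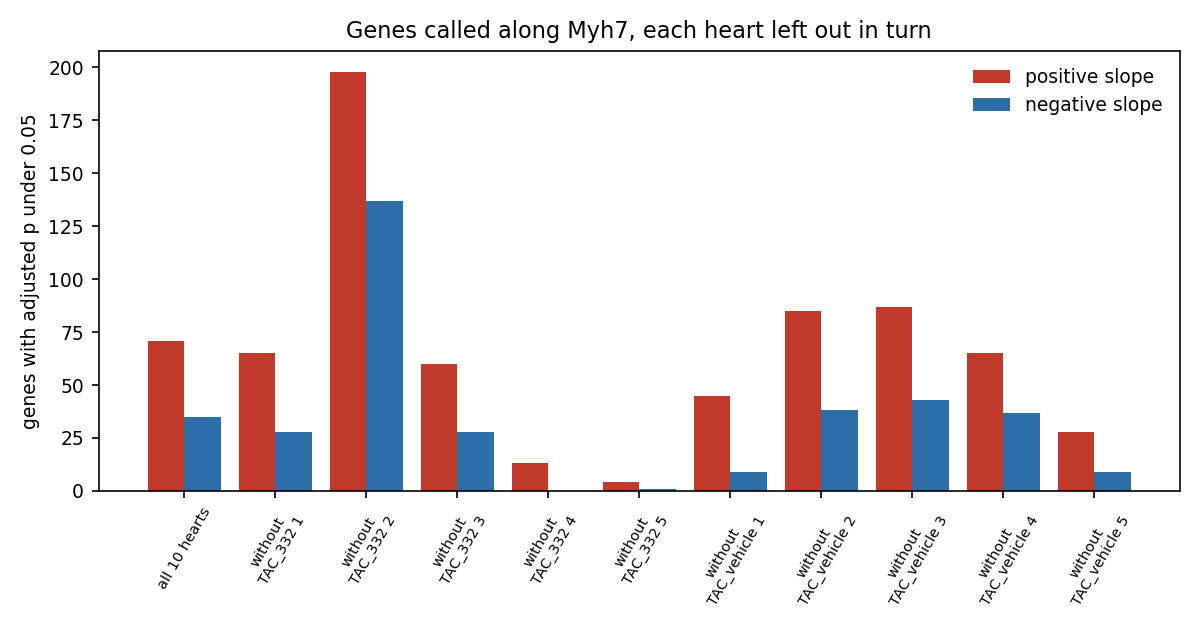
Number of genes with an adjusted p under 0.05 for a positive or a negative Myh7 slope with all 10 hearts and with each heart left out in turn. Positive slopes are fewest without TAC_332 replicate 5 (4 genes), negative slopes fewest without TAC_332 replicate 4 (0 genes), and both are most without TAC_332 replicate 2 (198 and 137 genes).

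Among the genes of the fetal and stress programme of cardiomyocytes, Nppa, which encodes atrial natriuretic peptide, rose with Myh7. It stood at 735, 1100, 1690, 3410 and 713 CPM in the TAC_332 hearts and at 521, 1850, 1360, 850 and 2160 CPM in the TAC_vehicle hearts. In both groups the heart with the most Myh7 had the most Nppa, the lowest hearts were TAC_332 replicate 5 and TAC_vehicle replicate 1, and the groups overlapped. Its slope was 0.92 (SE 0.11, edgeR adjusted p = 0.00722), a 1.90-fold change per doubling of Myh7. With 1 heart left out the slope lay between 0.85 and 1.04, and its call was lost without TAC_332 replicate 4 or replicate 5. Nppa was the only called gene of the 27 tested members of this list, against a background of 0.533% of all genes. The list's median slope was 0.20, and 22 of 27 slopes were above 0. At an unadjusted p under 0.05, 11 rose and 1 fell, and DESeq2 called 8 upward and 0 downward.

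Ankrd1, a stretch-responsive nuclear protein of cardiomyocytes, had a slope of 0.41 (SE 0.10, adjusted p = 0.0746), and Nppb, which encodes B-type natriuretic peptide, one of 0.32 (SE 0.08, adjusted p = 0.104). Neither passed in edgeR, while DESeq2 called both (adjusted p = 2.08e-04 for Ankrd1 and 0.00316 for Nppb) at slopes of 0.40 and 0.32. Acta1, the skeletal alpha-actin of the fetal heart, had a slope of 0.02 (SE 0.20, adjusted p = 0.984). It ran between 1920 and 4990 CPM in TAC_332 hearts and between 2710 and 4720 CPM in TAC_vehicle hearts, and its highest heart, TAC_332 replicate 3, had 1530 CPM of Myh7. Compared with sham_vehicle hearts, Acta1 was higher in TAC_vehicle hearts by 4.55 on the log2 scale (SE 0.51, adjusted p = 4.77e-05) and Nppa by 3.96 (SE 0.78, adjusted p = 0.00245). That comparison shares the TAC_vehicle hearts with the slopes, and 3703 of 14047 genes (26.4%) passed in it.

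Myh6, the adult alpha chain, had 22300, 22000, 18100, 18600 and 29500 CPM in TAC_332 hearts and 22300, 18700, 19500, 26100 and 24900 CPM in TAC_vehicle hearts. Its highest heart, TAC_332 replicate 5, had little Myh7, and the groups overlapped. The slope of -0.18 (SE 0.07, adjusted p = 0.265) did not pass in edgeR, and DESeq2 called it at the same slope (adjusted p = 0.0444). Mhrt, a long noncoding RNA transcribed from the Myh7 locus on the opposite strand, did pass in both, with a slope of -0.32 (SE 0.05, edgeR adjusted p = 0.00722). Without the lane term its slope was -0.10 and the call was lost (edgeR adjusted p = 0.588). Mhrt stood at 37.2, 33.9, 35.9, 31.8 and 63.2 CPM in TAC_332 hearts and at 36.2, 23.4, 26.8, 40.7 and 34.7 CPM in TAC_vehicle hearts, highest in TAC_332 replicate 5 and lowest in TAC_vehicle replicate 2. Strand use in the counting is not stated in the sources used here, so reads from overlapping stretches of Myh7 and Mhrt, like near-identical reads of Myh6 and Myh7, cannot be told apart. Among 22 adult sarcomere genes 0 were called by edgeR (4 at an unadjusted p under 0.05 downward, 0 upward) and 1 by DESeq2, and the median slope was -0.04.

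**Figure D3:**
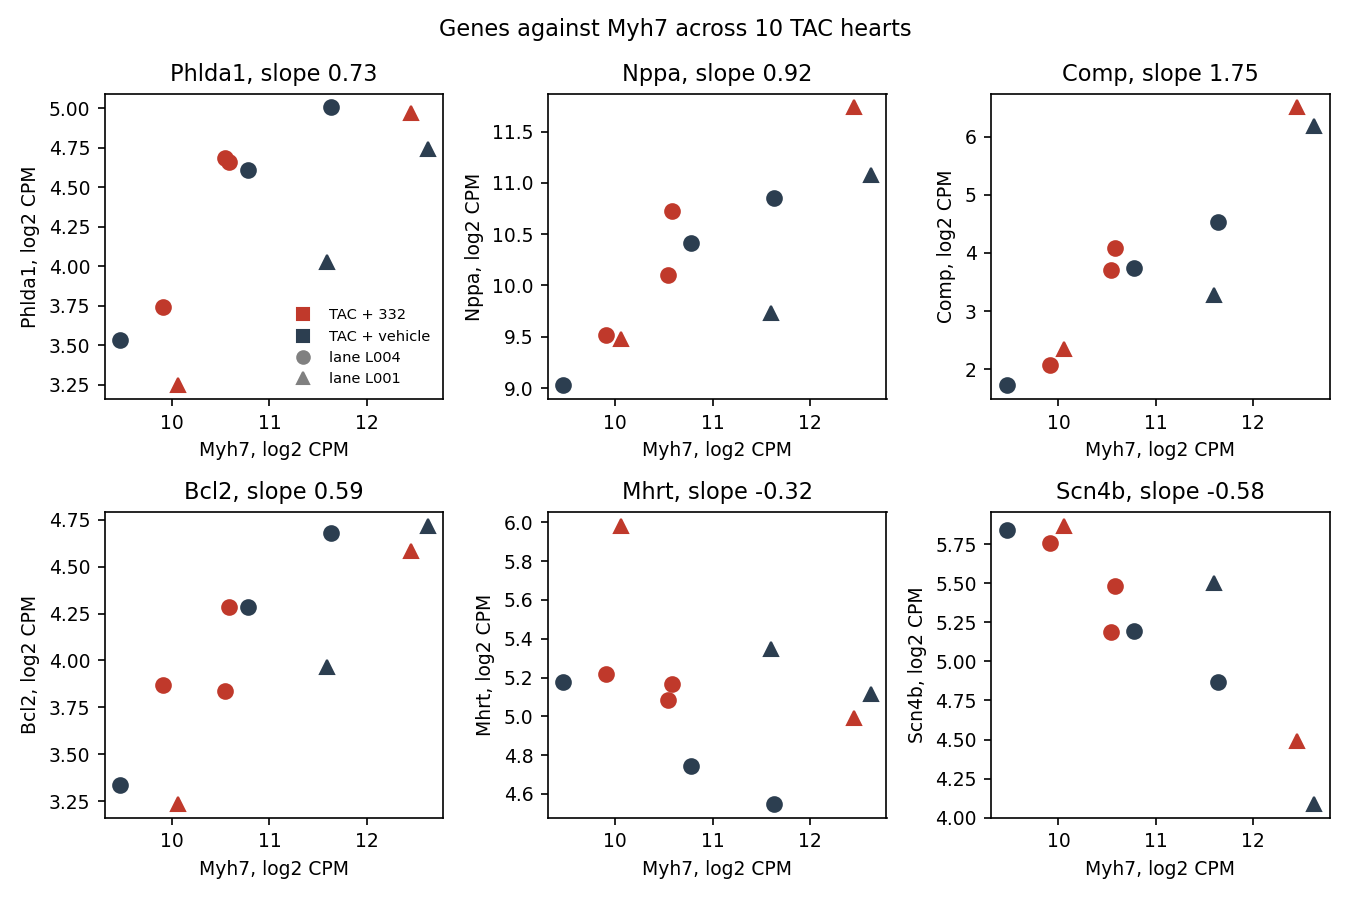
Log2 CPM of 6 named genes against log2 CPM of Myh7 in the 10 TAC hearts, one panel per gene, coloured by treatment, with circles for lane L004 and triangles for lane L001. Titles give the slope adjusted for group and lane, between 1.75 for Comp and -0.58 for Scn4b.

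The matrix and matricellular genes had the highest median slope of the 19 pathway lists. Comp, cartilage oligomeric matrix protein, which binds collagen, had 4.18, 13.0, 17.0, 91.0 and 5.09 CPM in TAC_332 hearts and 3.29, 23.2, 13.3, 9.66 and 72.7 CPM in TAC_vehicle hearts. Both groups had 1 heart far above their others, and these were the hearts with the most Myh7. Its slope was 1.75 (SE 0.21, adjusted p = 0.0183), or 3.35-fold per doubling of Myh7. With 1 heart left out it lay between 1.62 and 1.88, and the call was lost without TAC_332 replicate 4 or replicate 5. In the 8 sham hearts Comp did not exceed 1.70 CPM, and the lowest TAC heart on that scale had 3.15 CPM. In bulk samples fewer cells of a type and less RNA per cell cannot be told apart, and summed fibroblast markers, described further on, had a partial correlation of 0.83 with Myh7 (exact permutation p = 0.035, adjusted p = 0.208). With that sum as a further term, the slope was 1.89 for Comp, 1.22 for Fmod, 1.08 for Ccn5, 1.74 for Col12a1 and 0.15 for Dcn, none of them called by edgeR. Dcn is itself a marker in that sum, so its shallower slope with the term was partly built in.

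Of 38 matrix and matricellular genes tested, 5 rose, 0 fell (by edgeR, with 0 at an unadjusted p under 0.05 downward and 0 in DESeq2) and 25 had an unadjusted p under 0.05 upward. Their median slope was 0.37, and 37 of 38 slopes were above 0. Fmod, fibromodulin, a collagen-binding proteoglycan, rose with a slope of 1.28 (SE 0.17, adjusted p = 0.00722). Ccn5 and Ccn1, secreted matricellular proteins, had slopes of 0.83 (SE 0.13, adjusted p = 0.0339) and 0.35 (SE 0.06, adjusted p = 0.00951). Dcn, decorin, had the shallowest called slope of the list, 0.25 (SE 0.05, adjusted p = 0.0312). Ccn5 passed in 3 and Dcn in 4 of the 10 fits that left out 1 heart. The call of Ccn5 was also lost without the low-count filter (adjusted p = 0.086) and with library size as a term (0.0876), and without the lane term the slopes of Dcn (0.10) and Ccn1 (0.18) were not called. Postn, periostin, the usual marker of activated cardiac fibroblasts, did not pass in edgeR, at 0.95 (SE 0.25, adjusted p = 0.195), and was called by DESeq2 at the same slope (adjusted p = 0.00464). Postn ran between 127 and 929 CPM in TAC_332 hearts and between 162 and 601 CPM in TAC_vehicle hearts.

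Of 21 collagen genes tested, 2 rose, Col8a2 at 1.43 (SE 0.23, adjusted p = 0.0182) and Col12a1 at 1.20 (SE 0.21, adjusted p = 0.0435). The first is a short-chain network collagen and the second a fibril-associated one. Col12a1 passed in only 3 of the 10 fits that left out 1 heart, and Col8a2 averaged only 2.95 CPM. Over all genes, 0.533% rose. The main fibrillar collagen gene Col1a1 had a slope of 0.34 (SE 0.19, adjusted p = 0.545), and the list's median was 0.23. Of the 21 slopes, 19 were above 0, and 9 had an unadjusted p under 0.05 upward and 0 downward. DESeq2 called 4 upward and 0 downward.

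In the list of transforming growth factor beta (TGF-beta) and fibroblast activation genes, 5 of 29 rose and 0 fell (by edgeR, with 0 at an unadjusted p under 0.05 downward and 0 in DESeq2). They were the ligand Tgfb3 at 0.34 (SE 0.06, adjusted p = 0.0103), Ltbp3, which holds latent ligand in the matrix, at 0.31 (SE 0.05, adjusted p = 0.00951), the secreted Wnt modulator Sfrp2 at 0.70 (SE 0.12, adjusted p = 0.0103), the matricellular Ccn4 at 0.81 (SE 0.15, adjusted p = 0.0166) and the transcription factor Scx at 0.56 (SE 0.11, adjusted p = 0.0312). Scx passed in 4 of the 10 fits that left out 1 heart, where its slope fell as low as 0.31, and Ccn4 averaged only 1.99 CPM. The median of the list was 0.15, and 25 of 29 slopes were above 0. Of these genes, 13 had an unadjusted p under 0.05 upward, and DESeq2 called 9 upward. Acta2, the smooth muscle actin of myofibroblasts and vessels, had a slope of -0.26 (SE 0.12, adjusted p = 0.429) and passed in neither edgeR nor DESeq2.

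**Figure D4:**
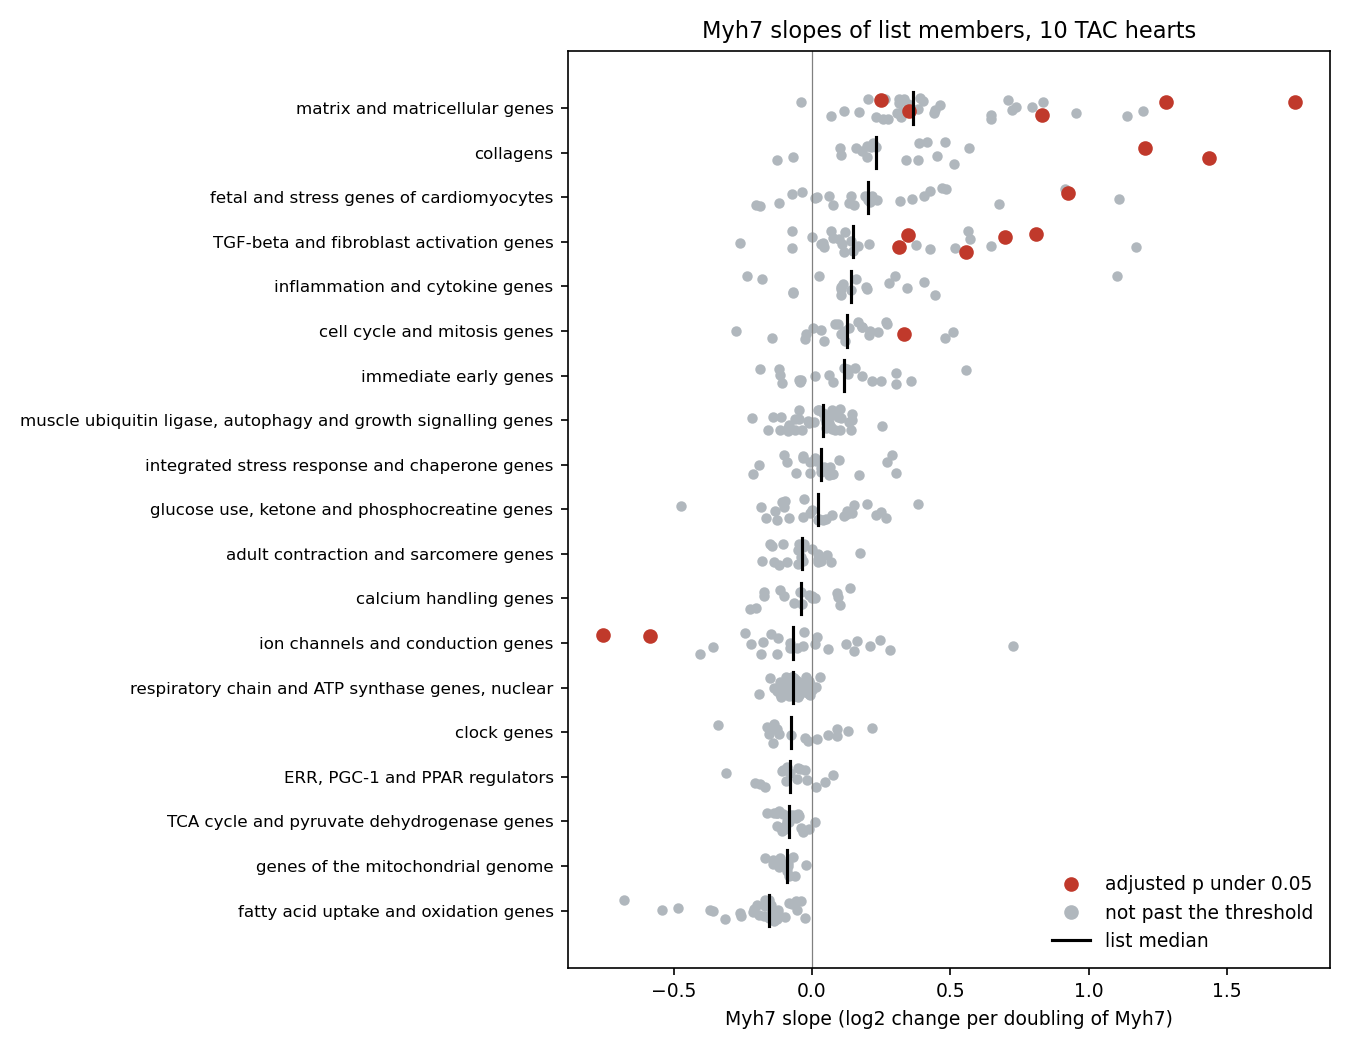
Myh7 slopes of the tested members of 19 gene lists across the 10 TAC hearts, one row per list, ordered by the list median (black bar). Red points passed an adjusted p of 0.05 and grey points did not. Matrix genes have the highest median (0.37) and fatty acid genes the lowest (-0.16).

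The genes whose pattern across hearts was closest to Myh7 were chosen by the partial correlation with Myh7 after group and lane, among genes averaging 5 CPM or more. With a positive sign they were Etv5 (r = 0.98, rho = 0.99), Phlda1 (r = 0.97, rho = 0.98), Bcl2 (r = 0.97, rho = 0.95), Upp1 (r = 0.97, rho = 0.96) and Zfp521 (r = 0.95, rho = 0.95) over the 10 hearts. Etv5 and Zfp521 are transcription factors, Bcl2 blocks mitochondrial apoptosis, Upp1 splits uridine, and Phlda1 is a pleckstrin-homology-like protein. With a negative sign they were Rmc1 (r = -0.98, rho = -0.99), the noncoding models Gm31251 and Mhrt (r = -0.95 and -0.94), Osbpl6 (r = -0.94) and Mrpl3 (r = -0.94). Mrpl3, a mitochondrial ribosomal protein, was called by neither edgeR (slope -0.13, SE 0.04, adjusted p = 0.13) nor DESeq2. All were computed from the same libraries, and those chosen for this likeness are not evidence of it.

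Phlda1, Nox4, Bcl2 and Pamr1 were called in each of the 10 fits that left out 1 heart, and no falling gene was. Phlda1 had 13.4, 25.7, 25.3, 31.3 and 9.49 CPM in TAC_332 hearts and 11.6, 32.1, 24.4, 16.3 and 26.8 CPM in TAC_vehicle hearts, with the lowest values in hearts low in Myh7. Its slope was 0.73 (SE 0.06, adjusted p = 7.24e-05). Without the lane term the slope of Phlda1 was 0.42 and that of Etv5 0.20, against 0.39 with it, and neither was called by edgeR (adjusted p = 0.153 and 0.18). Bcl2 had 14.6, 14.3, 19.5, 24.0 and 9.42 CPM in TAC_332 hearts and 10.1, 25.6, 19.5, 15.6 and 26.3 CPM in TAC_vehicle hearts, lowest in the hearts with the lowest residuals. Its slope was 0.59 (SE 0.06, adjusted p = 3.11e-04).

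Pamr1, a secreted protein with a peptidase domain, had a slope of 0.79 (SE 0.09, adjusted p = 0.0013). Nox4, an NADPH oxidase that makes hydrogen peroxide, had a mean of 4.67 CPM, below the minimum for naming, and was named after its values were seen. It had 3.12, 3.90, 3.48, 8.35 and 1.58 CPM in TAC_332 hearts and 1.91, 8.22, 4.31, 3.59 and 8.23 CPM in TAC_vehicle hearts. The 3 hearts above 8 CPM were also the highest in Myh7, and the slope was 0.98 (SE 0.09, adjusted p = 1.35e-04). Nkd2, an intracellular inhibitor of Wnt signalling, and Dkk3, a secreted protein of the dickkopf family, had slopes of 0.79 (SE 0.10, adjusted p = 0.0013) and 0.77 (SE 0.10, adjusted p = 0.00158). Ccnd2, cyclin D2, was the only called gene among 24 of the cell cycle (slope 0.33, SE 0.06, adjusted p = 0.0136).

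Among genes that fell as Myh7 rose, the steepest with a mean of at least 5 CPM was Scn4b, the beta-4 subunit of cardiac sodium channels. It had 54.1, 36.4, 44.8, 22.5 and 58.4 CPM in TAC_332 hearts and 57.4, 29.2, 36.7, 45.3 and 17.0 CPM in TAC_vehicle hearts. The 2 lowest hearts were those highest in Myh7, and the groups overlapped. Its slope was -0.58 (SE 0.09, adjusted p = 0.0158), between -0.66 and -0.52 with 1 heart left out, and the call was lost without TAC_332 replicate 4 or replicate 5. Of 26 ion channel and conduction genes, 2 fell and 0 rose by edgeR, the other being the potassium channel subunit Kcnv2 at -0.76 (SE 0.14, adjusted p = 0.0201). At an unadjusted p under 0.05, 8 fell and 5 rose. DESeq2 called 5 downward and 0 upward, and the list median was -0.07. Kcnd2, a transient outward potassium channel, did not pass in edgeR (-0.41, SE 0.10, adjusted p = 0.0838) and was called by DESeq2 (adjusted p = 0.00943).

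Adra1b, the alpha-1B adrenergic receptor, had a slope of -0.42 (SE 0.08, adjusted p = 0.0172). Amy1, an amylase, had -0.47 (SE 0.08, adjusted p = 0.0103), and Etfbkmt, a mitochondrial methyltransferase acting on the electron transfer flavoprotein, had -0.47 (SE 0.09, adjusted p = 0.0332). The lipid transfer protein gene Stard10 (-0.42), Prr33 (-0.47), Smco1 (-0.46) and Dct (-0.44), which encodes an enzyme of melanin synthesis, completed the 8 steepest. Their adjusted p-values in edgeR lay between 0.0172 for Dct and 0.0318 for Smco1. Without the lane term edgeR did not call Adra1b (adjusted p = 0.0915), Amy1 (0.0781), Dct (0.0995), Prr33 (0.208) or Stard10 (0.252). Etfbkmt (0.0185) and Smco1 (0.0313) stayed called in that fit. Of the 10 fits that left out 1 heart, Etfbkmt and Smco1 each passed in 4 and Stard10 in 5.

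Of 33 genes of fatty acid uptake and oxidation, 0 were called by edgeR. Unadjusted, 25 of them had p under 0.05 downward, DESeq2 called 9 downward, and none of the 33 slopes was above 0. The list median was -0.16, the lowest of the 19 lists, against 0.00 over all genes. Pdk4, which shifts fuel use from glucose to fat, had 356, 390, 407, 173 and 433 CPM in TAC_332 hearts and 612, 184, 558, 401 and 259 CPM in TAC_vehicle hearts. Its slope was -0.54 (SE 0.15, adjusted p = 0.196), and its lowest hearts were TAC_332 replicate 4 and TAC_vehicle replicate 2. Ucp3, a mitochondrial carrier, had -0.68 (SE 0.19, adjusted p = 0.211), Acaa2, a thiolase, -0.36 (SE 0.09, adjusted p = 0.104), and Cpt1b, the muscle carnitine palmitoyltransferase, -0.12 (SE 0.05, adjusted p = 0.328). None of these passed in edgeR. DESeq2 called Pdk4 (adjusted p = 0.0234), Ucp3 (0.0159) and Acaa2 (9.17e-04) at slopes of -0.55, -0.71 and -0.36, and not Cpt1b.

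Genes of mitochondrial metabolism had small negative median slopes. The median was -0.08 for 27 genes of the tricarboxylic acid cycle, -0.07 for 69 nuclear genes of the respiratory chain, -0.09 for the 13 genes of the mitochondrial genome and -0.08 for 17 ERR, PGC-1 and PPAR regulators. In each of these 4 lists 0 genes were called by edgeR. Unadjusted, 9, 8, 0 and 4 of them had a negative slope at p under 0.05, in the same order of lists, and DESeq2 called 1, 0, 0 and 1. Ppargc1a, the coactivator PGC-1alpha, had a slope of -0.31 (SE 0.09, adjusted p = 0.185) and was called by DESeq2 (adjusted p = 0.0122). The ERR genes gave -0.05 for Esrra (SE 0.04), 0.08 for Esrrb (SE 0.06) and -0.17 for Esrrg (SE 0.06), with adjusted p of 0.643, 0.651 and 0.204. Calcium handling genes had a median of -0.04 in 18 genes, with 0 called by edgeR or DESeq2. At an unadjusted p under 0.05, 4 of them fell and 1 rose. Atp2a2 and Pln, the calcium pump and its inhibitor, each had a slope of -0.17. The lists of glucose use (median 0.02), inflammation (0.14), stress response and chaperones (0.03), clock (-0.08), immediate early (0.12) and ubiquitin ligase and growth signalling genes (0.04) had 0 calls in edgeR, with 12, 8, 1, 1, 1 and 9 members at an unadjusted p under 0.05 in either direction. DESeq2 called 3 genes of glucose use and 0 of the other 5 lists.

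The summed CPM of 10 fibroblast markers ran between 1440 and 1790 in TAC_332 hearts and between 1490 and 1800 in TAC_vehicle hearts. Its partial correlation with Myh7 over the 10 hearts, after group and lane, was r = 0.83 (exact permutation p = 0.035 within group and lane, adjusted p = 0.208 over 12 measures; rho = 0.84, exact permutation p = 0.035; r = 0.80 without the 2 hearts farthest from the median of Myh7). The 7 tested activated fibroblast markers, which include Postn and Comp, summed to 218 to 1540 in TAC_332 hearts and to 304 to 1170 in TAC_vehicle hearts (r = 0.87, exact permutation p = 0.09, adjusted p = 0.208; rho = 0.82, exact permutation p = 0.146; r = 0.74 without the 2 farthest). The 9 smooth muscle and pericyte markers had a negative correlation (r = -0.86, exact permutation p = 0.021, adjusted p = 0.208; rho = -0.76, exact permutation p = 0.056; r = -0.74 without the 2 farthest), at 489 to 732 in TAC_332 hearts and 556 to 808 in TAC_vehicle hearts. The 9 ventricular cardiomyocyte markers other than Myh7 gave r = -0.76 (exact permutation p = 0.153, adjusted p = 0.262; rho = -0.79, exact permutation p = 0.083; r = -0.63 without the 2 farthest).

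The smallest p these permutations can give is 0.0069, and over 12 measures a lone measure at that value would adjust to 0.083, so no single measure could pass by itself. None passed, which does not show that none moved with Myh7. Endothelial (r = 0.16), macrophage (-0.19), red cell (-0.18) and Schwann cell marker sums (-0.85, exact permutation p = 0.069) and library size (-0.25) were among the 12 measures. So were the scaling factor for composition (r = 0.60, exact permutation p = 0.09, adjusted p = 0.208) and a score of clock genes (r = -0.35, exact permutation p = 0.451). The atrial markers Myl7, Sln, Bmp10 and Mybphl did not exceed 0.483 CPM in any TAC heart. The other atrial markers were present, Kcnj3 at 17.1 to 45.8 CPM and Myl4 at 0.712 to 2.31 CPM, and neither was called by edgeR (slopes -0.36 and 0.20). DESeq2 called Kcnj3 at the same slope (adjusted p = 0.0287) and not Myl4 (adjusted p = 0.894). The 8 lymphocyte markers were too low to be tested, as were all but 1 each of the adipocyte, epicardial and skeletal muscle markers. The share of counts from mitochondrial genes ran between 23.5% and 33.4% in TAC_332 hearts and between 23.7% and 34.8% in TAC_vehicle hearts, lowest in lane L001, with r = -0.60 (exact permutation p = 0.104, adjusted p = 0.208; rho = -0.71, exact permutation p = 0.083; r = -0.29 without the 2 farthest). With the fibroblast sum as a further term, an alternative chosen after the data were seen, 8 genes rose and 5 fell, and 6 of the 71 and 0 of the 35 remained called. Of the 31 called genes named by rule, all 31 kept their sign and 27 kept a slope within 1.5 times of that without the term, while 28 lost their call. Nppa had 1.03 with the term and Nkd2 1.01. The slopes outside that range were steeper for Etfbkmt (-0.71) and Adra1b (-0.63) and shallower for Dcn (0.15), itself a marker in the sum, and Osbpl6 (-0.19). With the mitochondrial share as a term, 10 rose and 3 fell, and 9 of the 71 and 1 of the 35 remained called. All 31 named genes kept their sign and a slope within 1.5 times, among them Comp at 1.70, Nppa at 0.91, Ccn4 at 1.01 and Scn4b at -0.62, and 25 lost their call.

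The association was compared between treatments. No gene had a slope that differed between TAC_332 and TAC_vehicle hearts at an adjusted p under 0.05 in edgeR (0 of 13328, 0%), with 497 genes at an unadjusted p under 0.05, and DESeq2 called 4. Comp differed by 0.22 (SE 0.32), Nppa by 0.24 (SE 0.16) and Scn4b by -0.04 (SE 0.16), each as TAC_332 minus TAC_vehicle, with an adjusted p of 0.998. An adjusted p of that size does not show that the slopes were alike. With TAC_332 hearts alone, 58 genes rose and 5 fell, and with TAC_vehicle hearts alone 0 rose and 0 fell by edgeR (420 and 460 at an unadjusted p under 0.05), which is no evidence of a difference between the groups.

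The 8 sham hearts gave a separate look at Myh7 at its low level, and they share no heart with the slopes above. Only 1 of 13329 genes was called there by edgeR (0.0075%), Gm7367, a predicted gene at 0 counts in 10 of 18 hearts, with 544 genes at an unadjusted p under 0.05 and 0 called by DESeq2. Of the 71 rising genes, 65 were tested in sham hearts and 26 of them had the same sign, with a median slope of 0.44 in TAC hearts and -0.09 in sham hearts. Of the 35 falling genes, all were tested and 14 had the same sign, with a median slope of -0.37 in TAC hearts and 0.04 in sham hearts. At an unadjusted p under 0.05 in sham hearts, 1 rising gene had the same and 3 the opposite sign. Of the falling genes, 1 had the same and 6 the opposite sign. Over all genes tested in sham hearts, 4.08% had such a p in either direction. Nppa had a sham slope of 1.07 (SE 1.04), Comp -0.45 (SE 0.55) and Mhrt 0.27 (SE 0.10), each with an adjusted p of 0.999.

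Slopes that differed between TAC and sham hearts were called in 2 of 14046 genes (0.0142%). This difference was estimated in 1 joint fit over all 18 hearts, with Myh7 centred within each of the 4 groups and 1 lane term, so it need not equal the difference between the slopes of the separate fits. The one with counts in all hearts was Ppp1r3c, a glycogen-targeting subunit of protein phosphatase 1, with a slope of 0.28 in TAC and -0.52 (SE 0.14) in sham hearts and a difference of 0.77 (SE 0.12, edgeR adjusted p = 0.00962). It stood at 138, 141, 135, 209 and 122 CPM in TAC_332 hearts and at 140, 188, 164, 156 and 238 CPM in TAC_vehicle hearts. The sham_332 hearts had 105, 74.5, 102, 78.9 and 58.2 CPM and the sham_vehicle hearts 103, 79.8 and 77.2 CPM, on the same scale and all below every TAC heart. The other gene, Gm49207, is at 0 counts in 15 of 18 hearts. For the named genes the TAC minus sham difference of slope was 1.54 (SE 0.71) for Comp, -0.30 (SE 0.51) for Nppa and -0.34 (SE 0.11) for Mhrt, with an adjusted p of 0.999 each, so the slopes are not shown to differ between TAC and sham hearts for these.

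**Figure D5:**
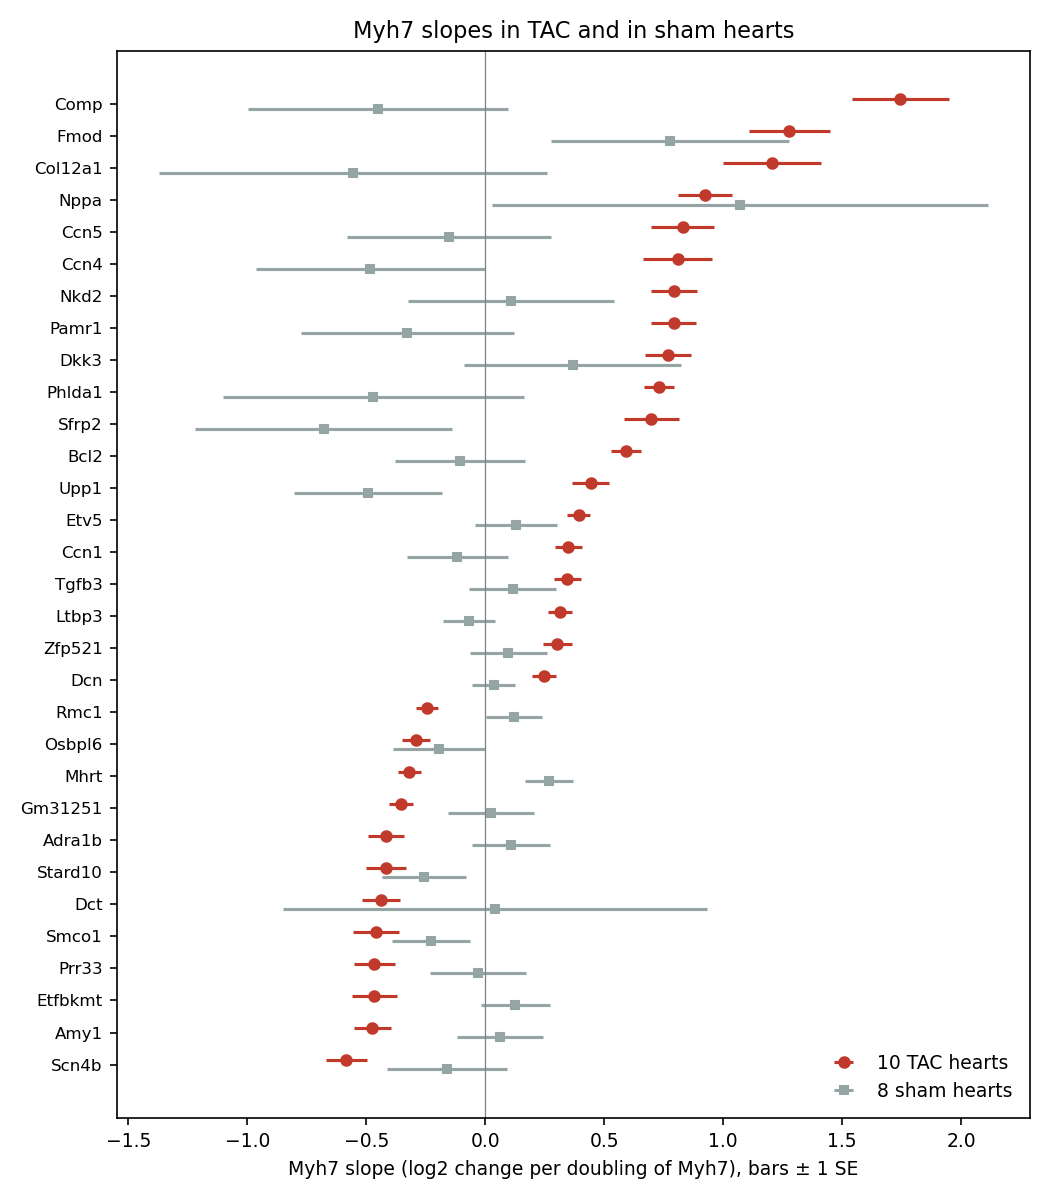
Myh7 slopes of the named called genes, as log2 change per doubling of Myh7, with bars of 1 SE, in the 10 TAC hearts (red) and the 8 sham hearts (grey). Comp has 1.75 in TAC and -0.45 in sham hearts, and the sham bars are wider.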

How the data were processed

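The mouse left ventricle RNA libraries were prepared with the TruSeq RNA kit v2, per the labels' protocols, and fastp, Salmon and DESeq2 are named in the submitters' processing notes. Versions, genome build and annotation release are not given in the sources used here. The values used are the estimated counts per transcript that the authors made with Salmon and deposited, per the file headers (a read number column in Salmon's layout). They were summed over 140790 transcripts into 54307 genes and rounded; 7.434% of gene sums were not whole before rounding. Their totals ranged between 11375894 and 16599899 per TAC heart and between 12037176 and 14526856 per sham heart. The deposited TPM values were not used, and a rat table was not analysed here.

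Counts were scaled by TMM (edgeR 4.0.16, R 4.3.3; factors 0.924 to 1.09 over the TAC hearts) and filtered with filterByExpr at a minimum count of 10. Each gene was fitted with edgeR's quasi-likelihood F-test on the log2 CPM of Myh7 (prior count 2), group and lane group (L001 against L003 and L004, read from the lane tag of the deposited tables; what the lanes share besides the run is not stated). Myh7 was left out, and Benjamini-Hochberg adjustment ran over all genes. The residual degrees of freedom were 6. The SE is the absolute slope over the root of F. DESeq2 1.42.0 was an alternative. The members, the gene lists (19 pathway and 13 marker lists, 647 entries) and the tests were chosen with earlier results of these data known.

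Named genes were, among calls averaging 5 CPM or more whose sign held in every fit that left out 1 heart, the 8 steepest each way; up to 4 called members of each list with at least 3; a fixed set; and the 5 genes most like Myh7 each way by partial correlation. Nox4, Ppp1r3c, Gm7367, Gm49207 and list members quoted beyond these were named after their values were seen. Promoter windows are from RefSeq (GRCm38.p6), matched by symbol. Replicate numbers were not used to pair hearts.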

Additional observations from a re-analysis of the deposited data

Results flagged for a closer look

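Within a group of 5 hearts, a sample far from the other 4 by Dixon's criterion was looked for in Myh7, the named genes of the steepest and fixed sets, the marker sums and the technical measures. By chance about 1 in 20 such groups would be marked. In TAC_332, the top heart stood apart for Myh7 (5600 CPM), Comp (91.0 CPM), Nkd2 (15.8 CPM), Dkk3 (20.9 CPM), Postn (929 CPM) and the activated fibroblast marker sum (1540 CPM). It was replicate 4 each time. Comp, Nkd2 and Dkk3 were chosen for steep slopes on Myh7, and the marker sum includes Comp and Postn. That they share the top heart of Myh7 is therefore no separate result. Replicate 5 of TAC_332 stood apart for Amy1 (15.9 CPM) and for the ventricular cardiomyocyte marker sum (64600 CPM). In TAC_vehicle, replicate 5 stood apart for Comp (72.7 CPM) and replicate 1 for Ppargc1a (157 CPM).

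Myh7 slopes differed between TAC and sham hearts for Ppp1r3c, by 0.77 (edgeR, adjusted p = 0.00962), and for Gm49207, by -13.75 (adjusted p = 0.00771), a predicted gene with counts in 3 of 18 hearts.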

How the results depend on the processing

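The 71 rising and 35 falling genes numbered 127 and 73 without the low-count filter, 185 and 115 with DESeq2 (which called 71 and 34 of them), 189 and 89 without the lane term, 3 and 0 in lane L004 alone (6 hearts) and 598 and 534 in lane L001 alone (4 hearts, 1 residual degree of freedom). They numbered 0 and 0 in TAC_vehicle hearts alone, 5 falling in TAC_332 hearts alone, 10 and 3 with the mitochondrial share, 8 and 5 with the fibroblast sum, and 2 and 0 without the 2 hearts farthest from the median. With Nppa as the axis 303 rose and 222 fell, and with Ankrd1 283 and 238. Leaving out 1 heart gave 4 to 198 rising and 0 to 137 falling genes. Without the lane term 13 of the 31 called genes named by rule lost their call and 10 had a slope smaller by over 1.5 times (Ccn1, Dcn, Etv5, Fmod, Gm31251, Mhrt, Phlda1, Prr33, Stard10 and Zfp521), with 0 changes of sign. Library size as a term ended the calls of Ccn5, Comp and Smco1, and omitting the filter those of Ccn5 and Col12a1. The cause of these moves was not tested. RLE factors, a stricter filter, ranks of Myh7, a clock score, library size and leaving out mitochondrial genes kept both counts within 1.5 times.

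Slopes that differed between treatments numbered 5 without the filter and 4 with DESeq2, and 0 to 4 with 1 heart left out. Called sham slopes numbered 46 without the filter, 0 with the stricter filter and 0 with DESeq2, and 1 to 4 with 1 heart left out. TAC minus sham slopes numbered 8 without the filter, 1 with the stricter one and 1 to 4 with 1 heart left out. TAC_vehicle against sham_vehicle gave 2452 to 4047 genes with 1 heart left out, lowest without sham_vehicle replicate 3.

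With a replicate block in place of the lane term, 230 genes rose and 162 fell (57 and 31 of the called ones shared), 15 slopes differed between treatments, 89 were called in sham hearts and 7 differed between TAC and sham. The deviations of same-numbered hearts, taken after group and lane, correlated between -0.444 and -0.025. Same-numbered TAC hearts share a lane, and deviations sum to 0 within a lane, which by itself pulls these correlations below 0. They therefore cannot show whether hearts were paired, and the labels give no pairing.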
